A study of Mus musculus with 4 samples.

Results

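The data described here are read counts over 212 start site windows whose Ensembl mouse gene numbers run from 65390 to 65640, out of 51121 windows in the deposited table. This stretch of the numbering is made up mostly of microRNA genes from the miRBase registry. The numbers were used as a stand-in for gene class: no gene symbol was paired with any identifier in the sources used here, so the class of a single window was not checked. The stretch spans 251 numbers, of which 39 had no row. At its edges, the first window inside (number 65392) held 23 reads in the library of cells with intact KAP1 (KAP1+/+) and 13 in that of cells with floxed KAP1 (KAP1f/f), and the nearest window before it (65389) held 8 and 4. The last window inside (65640) held 9 and 4 reads, and the nearest window after it (65642) held 16 and 3.

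The study profiled H3K9me3, a histone mark of silenced chromatin, by ChIP-seq in sorted regulatory T cells (Tregs) from the spleen of C57BL/6 mice. Both columns of the table carry Foxp3cre, a recombinase expressed from the Foxp3 locus, which marks Tregs, so KAP1-sufficient and KAP1-deficient cells alike have the Cre allele. One column is headed Foxp3creKAP1+/+ (KAP1 intact, called the KAP1+/+ library here) and the other Foxp3creKAP1f/f (KAP1 floxed and so deleted in cells with the recombinase, the KAP1f/f library). The labels describe 4 samples, an H3K9me3 and an input sample of each genotype, but the column headings name no antibody. Each column was read as the H3K9me3 sample of its genotype from the design text alone, and no input column was used. For the number of mice, their age and the share of cells with KAP1 deleted, the sources used here give no value.

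MicroRNAs are short RNAs cut from a hairpin within a longer transcript. Loaded into Argonaute proteins, they lower the stability and translation of messenger RNAs that pair with their seed, and Tregs need the enzyme that makes them, Dicer, to keep their suppressive state. KAP1 (TRIM28) is a co-repressor recruited by KRAB zinc finger proteins, which brings in the H3K9 methyltransferase SETDB1 at retrotransposons and imprinted regions. The annotated start of a microRNA gene is usually the start of its hairpin, not the promoter of the transcript that holds it. Of 1228 microRNA genes in RefSeq's annotation of GRCm38, the assembly of mm10, 825 (67.2%) lay inside a protein-coding gene on either strand, and a further 121 (9.85%) inside a long noncoding RNA gene. Another microRNA gene started within 1 kb for 286 of them (23.3%). These 3 values describe the class in RefSeq and not the 212 windows. Windows of clustered microRNAs may overlap and share reads, so they cannot be counted as independent.

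With 1 library per genotype, no difference below has a replicate check and none was tested. All intervals are exact 95% Poisson or binomial ones unless stated, treat reads as independent molecules and cover counting error only. They compare libraries, not genotypes. The KAP1+/+ library held 480326 reads in all windows and the KAP1f/f library 228009, so the former was 2.11 times deeper. Ratios between libraries are scaled to these totals, which removes any difference in total reads, whether from depth or from total H3K9me3. Without an input column, reads per window cannot be split into H3K9me3 signal and background.

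Nearly every window of the microRNA block was read. In the KAP1+/+ library these windows held between 0 and 27 reads, with a median of 11, quartiles of 9 and 15, and a mean of 11.9 ± 4.57 (SD over 212 windows). In the KAP1f/f library they held between 0 and 21 reads, with a median of 5, quartiles of 3 and 8, and a mean of 5.68 ± 3.53. The highest window of the block was thus within 3 times the median in the KAP1+/+ library. Relative to the median the KAP1f/f library reached further, with 21 reads in its highest window against a median of 5.

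The start site windows of microRNA numbers were read about as deeply as those of identifiers 1 to 63999, which are mostly protein-coding genes. The 17863 comparator windows averaged 12.0 ± 5.61 reads (SD over windows) in the KAP1+/+ and 5.39 ± 3.60 in the KAP1f/f library. Reads per window in the microRNA block were thus 0.99 times those of the comparator in the KAP1+/+ library (95% interval 0.95 to 1.03). They were 1.05 times those of the comparator in the KAP1f/f library (0.995 to 1.12), and both intervals include equal density. With the comparator limited to its 2800 windows in the table rows up to the last one of the block, chosen after seeing the data, the KAP1f/f value was 1.06 with an interval of 1.002 to 1.13, which leaves out equality. Against all other windows of the table, which include many that hold no reads, the block was denser in both libraries, by 1.27 times (1.22 to 1.32) and 1.28 times (1.20 to 1.35). Over windows with at least 1 read the gap was smaller. The block averaged 11.9 KAP1+/+ reads against 10.7 in all other windows, and 5.71 KAP1f/f reads against 5.07. The block's level thus lay near the average of mostly protein-coding starts. It was above that of the rest of the table as a whole, in part because of that rest's empty windows. The comparator was not even along its numbering. Its runs 63382 to 63632 and 63633 to 63883 averaged 9.6 and 9.2 KAP1+/+ reads, below the block's 11.9.

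**Figure D1:**
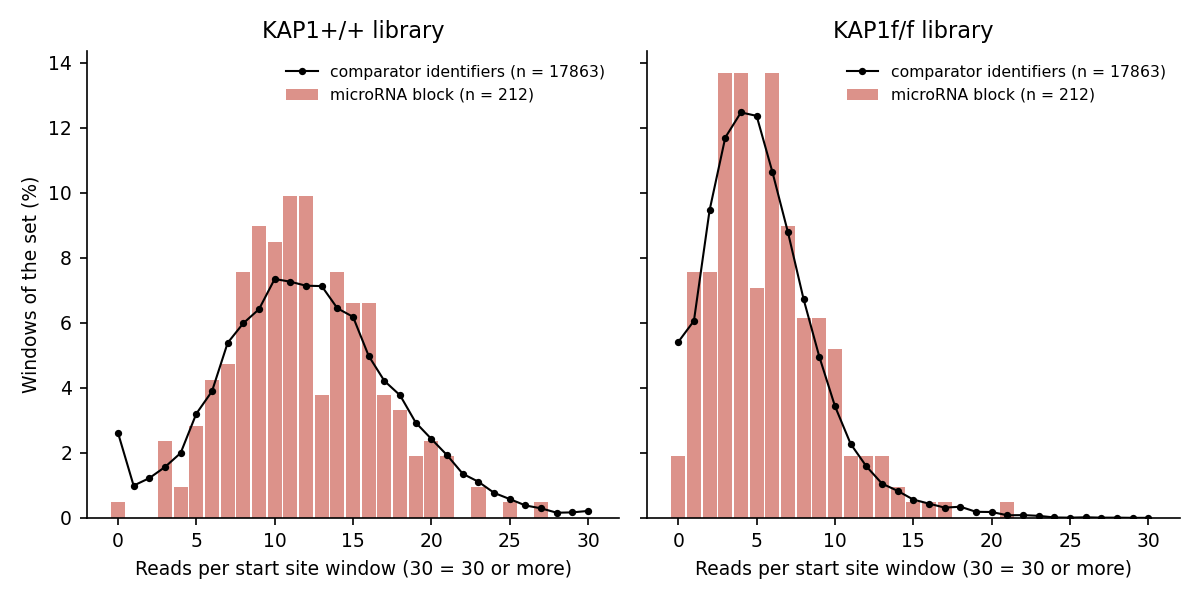
Share of windows (percent, vertical axis) by reads per window (horizontal axis) in each library, for the 212 windows of the microRNA block (bars) and the 17863 comparator windows (line). The block's windows fill the middle of the comparator's distribution, with fewer windows at 0 and few at the upper end.

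The block's windows lay closer together than the comparator's in the KAP1+/+ library, where 93.4% of them (198) held more than 5 reads, against 88.4% of comparator windows. At the upper end, 6.13% (13 windows) held more than 19 reads, against 9.37%. The upper end of the KAP1f/f library showed no such narrowing: 25.9% of block windows held more than 7 reads there, against 23.1%, and 8.49% held more than 10, against 8.02%. With counting noise subtracted by moments, the coefficient of variation of read density between windows of the KAP1+/+ library was 25.3% in the block and 36.8% in the comparator. Over windows with at least 1 read these values were 24.2% and 33.0%, so the narrower spread did not rest on the empty windows alone. In the KAP1f/f library the values over windows with at least 1 read were 45.2% in the block and 48.1% in the comparator, closer to each other. The spread has no replicate error, so the gap between the block and the comparator is a description of these libraries.

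Empty windows were rare in the microRNA block. One window, that of ENSMUSG00000065628, held 0 reads in both libraries, which is 0.47% of the block (0.012% to 2.60%). In the comparator 418 windows, or 2.34% (2.12% to 2.57%), were empty in both, and over all 51121 windows 12.0% (11.7% to 12.3%) were. The block's interval includes the comparator's share and lies below the share over all windows. Low shares were not confined to the block. Over 17 consecutive runs of 251 numbers centred on it, the share ranged from 0% (numbers 64888 to 65138) to 12.3% (65892 to 66142). For the KAP1+/+ library alone, the same window gave 0.47% with the same interval, just short of the comparator's 2.62% (2.39% to 2.86%), and the intervals overlap. Where reads can be mapped, 0 reads allow a level of up to 3.69 in each library, the upper limit of the exact interval. Whether reads could be mapped and kept in that window was not tested.

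Absence of reads in the KAP1f/f library alone was also uncommon. Besides the window empty in both, 3 windows of the block had 0 KAP1f/f reads, with 7, 11 and 14 reads in the KAP1+/+ library. Together, 4 of 212 windows (1.89%, 0.52% to 4.76%) were at 0 in that library, against 5.41% (5.08% to 5.75%) in the comparator, and these intervals do not overlap. No window of the block was at 0 in the KAP1+/+ library alone, and such windows were few elsewhere too. Of the 17863 comparator windows, 468 were at 0 in the KAP1+/+ and 966 in the KAP1f/f library, and 418 were in both. Over all 51121 windows these counts were 6561, 8318 and 6147.

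Summed over the block, the libraries contributed in the ratio of their depths. The windows held 2521 KAP1+/+ and 1205 KAP1f/f reads, a scaled KAP1f/f to KAP1+/+ ratio of 1.01 (95% interval 0.94 to 1.08). In the comparator, 214124 and 96286 reads gave 0.95 (0.94 to 0.95). The block's ratio was 1.06 times the comparator's (0.99 to 1.14 by the normal approximation on the log scale), an interval that includes equality. Of the 211 windows with reads, 101 (47.9%) had a scaled ratio above 1, against 42.5% of the comparator's 17445. Windows with more KAP1f/f than KAP1+/+ reads before scaling numbered 15 (7.11%) in the block and 817 (4.68%) in the comparator.

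The identifiers next to the block in Ensembl's numbering gave a different picture. The 651 windows between the comparator and the block (numbers 64006 to 65389) averaged 9.90 ± 4.87 reads (SD over windows) in the KAP1+/+ and 5.31 ± 3.54 in the KAP1f/f library. Their pooled KAP1f/f to KAP1+/+ ratio was 1.13 (1.08 to 1.18). The 145 windows after the block (65642 to 65889) averaged 9.74 ± 4.97 and 5.62 ± 3.93 reads, with a ratio of 1.22 (1.11 to 1.33). Relative to these neighbours, the microRNA block held 1.20 times (1.15 to 1.26) and 1.22 times (1.14 to 1.30) as many KAP1+/+ reads per window. In the KAP1f/f library it held 1.07 times (1.00 to 1.14) and 1.01 times (0.92 to 1.11) as many. Its pooled ratio was 0.89 times (0.82 to 0.96) and 0.83 times (0.74 to 0.93) theirs. The separation from the neighbouring numbers was thus larger in the KAP1+/+ library, and what genes those neighbours are was not analysed here.

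**Figure D2:**
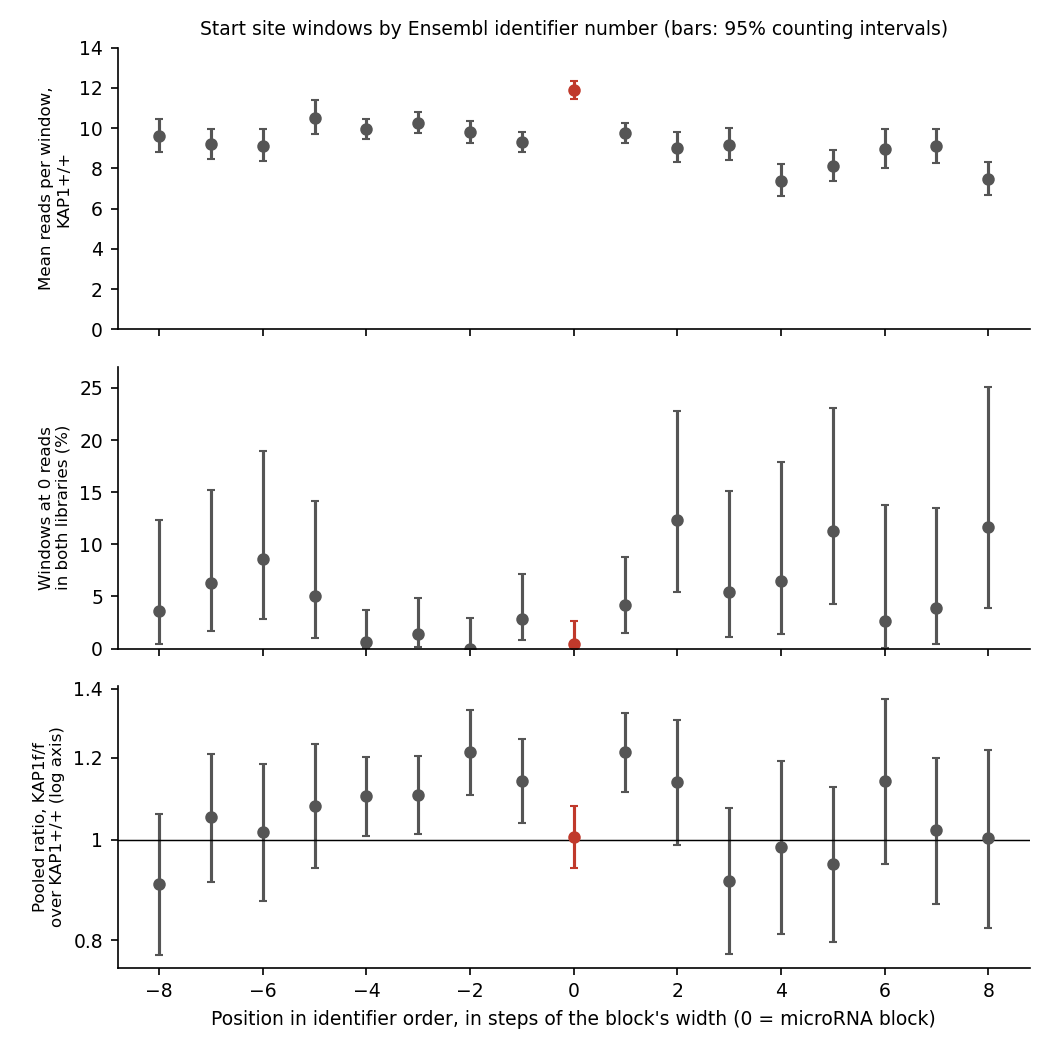
Mean KAP1+/+ reads per window (top), percent of windows at 0 reads in both libraries (middle) and pooled KAP1f/f over KAP1+/+ ratio (bottom, log axis) in consecutive runs of 251 identifier numbers. Position 0 is the microRNA block, and bars are 95% counting intervals. The block's mean of 11.9 reads is the highest of the 17 runs drawn. Its ratio of 1.01 lies below those of the runs on either side, 1.14 and 1.22, but within the range of all 17 runs, 0.91 to 1.22.

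The block was also divided along its numbering. In 5 consecutive runs of about 50 numbers, holding 37 to 46 windows each, the mean in the KAP1+/+ library ranged from 10.6 reads (95% Poisson interval 9.55 to 11.7) in numbers 65590 to 65640 to 12.7 reads (11.6 to 13.8) in numbers 65540 to 65589. In the KAP1f/f library it ranged from 4.87 (4.24 to 5.56) to 6.04 (5.35 to 6.80). The intervals of the lowest and highest runs touch in both libraries, narrowly in the KAP1+/+ library. The pooled ratio was lowest in numbers 65440 to 65489, at 0.88 (0.75 to 1.04). It was highest in numbers 65590 to 65640, at 1.19 (1.01 to 1.41), and these intervals overlap.

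Windows rich in reads in the KAP1+/+ library were often rich in the KAP1f/f library too. Across the 212 windows, which are not independent replicates, the libraries' counts correlated with Pearson's r of 0.43 and Spearman's rho of 0.42. Across the comparator the same values were 0.53 and 0.52. The windows share their libraries, their depth and any mapping or base composition effect, so these values describe the table.

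Windows were also grouped by their reads over both libraries, a sort that uses the KAP1f/f reads of the ratio itself. Among block windows with 10 to 19 reads over both libraries (122 windows) the scaled ratio was 0.90 (0.81 to 0.996), and in the comparator it was 0.88 (0.87 to 0.89). With 20 to 29 reads (59 windows) it was 1.07 (0.96 to 1.20), against 0.96 (0.94 to 0.97) in the comparator. With 30 reads or more (11 windows) it was 1.40 (1.13 to 1.73), against 1.19 (1.17 to 1.22). The 19 windows with 1 to 9 reads gave 0.86 (0.59 to 1.25), against 0.80 (0.77 to 0.83). In each of the 4 classes the block's value was above the comparator's. Its interval included the comparator's value in all classes but that of 20 to 29 reads, where the intervals of both sets overlapped.

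**Figure D3:**
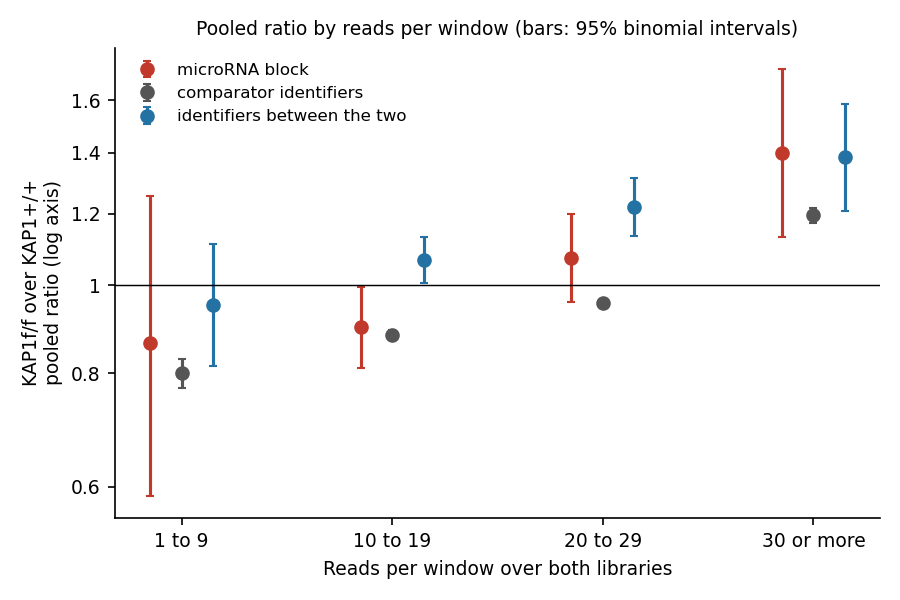
Pooled KAP1f/f over KAP1+/+ ratio (log axis) by class of reads per window over both libraries, for the microRNA block, the comparator identifiers and the identifiers numbered between them. Bars are 95% binomial intervals. The block moves from 0.86 in the lowest class to 1.40 in the top class, and the comparator from 0.80 to 1.19.

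The order of the ratios across classes depended on how windows were sorted. In that sort the ratio was higher in the classes with more reads, and the sort favours windows high in either library. When windows were sorted on KAP1+/+ reads alone, a choice made after seeing the data that favours windows high in that library, the ratio fell with reads. In the block it was 1.26 (1.09 to 1.46) for 67 windows with 1 to 9 KAP1+/+ reads and 0.99 (0.88 to 1.10) for 84 windows with 10 to 14. For the 60 windows with 15 or more it was 0.91 (0.81 to 1.02). The comparator gave 1.18, 0.96 and 0.85 in the same classes. The block and the comparator thus moved in the same order under each sort, and no trend with reads can be read from either sort alone.

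Single windows of the block differed between the libraries about as often as windows did in the whole table. A window was called where its scaled ratio, with 2 reads added, reached 2-fold up or down and the interval of its own ratio excluded 1. Of the 212 windows, 192 reached an average of 5 reads across the libraries and could be called. Of these, 4 (2.08%) were called lower in the KAP1f/f library, and over all 35540 windows past the same filter 1.81% were. In the other direction 5 (2.60%) were called higher, against 2.49% of all windows. Both shares are near the background, and the median log2 ratio was -0.03 in the block and -0.05 over all windows. The squared deviations of the window shares, over windows with at least 1 read, were 1.22 times the binomial variance in the block and 1.15 times in all windows.

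**Figure D4:**
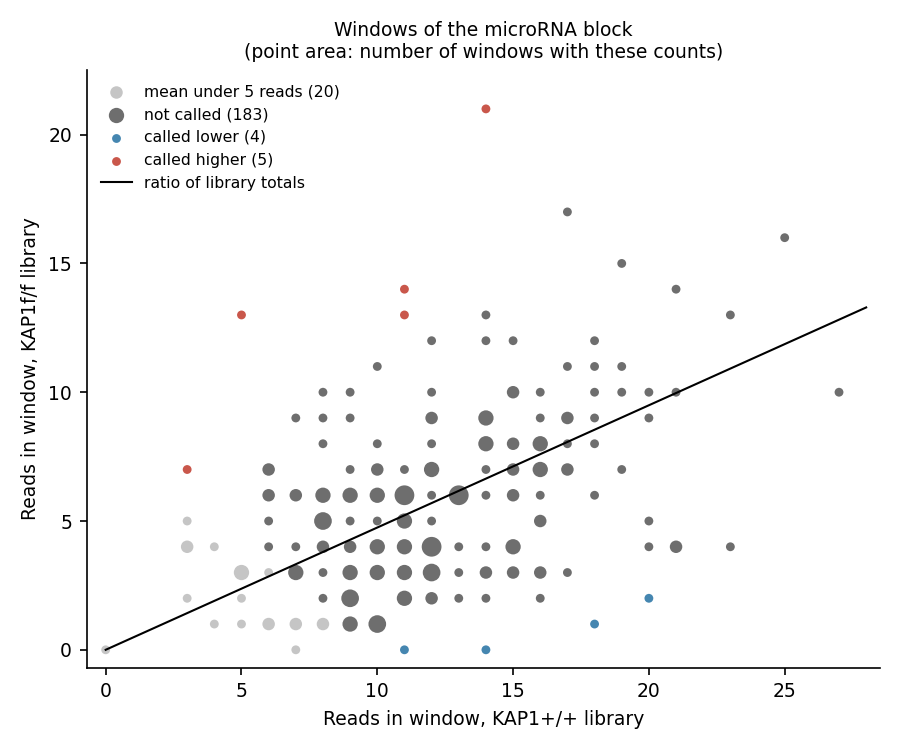
KAP1f/f reads (vertical axis) against KAP1+/+ reads (horizontal axis) for the 212 windows of the microRNA block, with point area for the number of windows at the same counts. The line is the ratio of the library totals; the 4 windows called lower hold at most 2 KAP1f/f reads, and the 5 called higher hold 7 to 21.

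The calls rested on few reads. The window of ENSMUSG00000065395 had 14 KAP1+/+ reads (7.65 to 23.5) and 0 KAP1f/f reads. The exact upper limit for its 0 KAP1f/f reads was 3.69. Set against a lower floor of 3 reads in that library, with the 14 reads taken as exact, the window was 2.22-fold lower. The upper limit of its ratio, which takes in the error of both counts, was 0.64, or at least 1.57-fold lower. The window of ENSMUSG00000065543 held 18 and 1 reads, a ratio of 0.12 (0.0028 to 0.74). The other windows called lower held 11 and 0 reads and 20 and 2 reads. Each window called lower had at least 11 reads in the KAP1+/+ library, and the calling rule allows no such call where KAP1+/+ reads are few.

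In the other direction, the window of ENSMUSG00000065511 had 5 KAP1+/+ and 13 KAP1f/f reads, a ratio of 5.48 (1.83 to 19.6). The window of ENSMUSG00000065606 held 14 and 21 reads, a ratio of 3.16 (1.53 to 6.72), and had the most KAP1f/f reads of the block. The other windows called higher held 11 and 14, 3 and 7, and 11 and 13 reads. These 9 windows were picked from 192 by their ratios, and their intervals make no allowance for that choice.

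Of the 5 most-read windows of the block, 1 was among those called. The window of ENSMUSG00000065508 had the most reads over both libraries, 25 in the KAP1+/+ (16.2 to 36.9) and 16 in the KAP1f/f library (9.15 to 25.98), a ratio of 1.35 (0.67 to 2.63). The next windows held 27 and 10, 23 and 13, and 21 and 14 reads, and ENSMUSG00000065606 followed with its 14 and 21.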

How the data were processed

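The authors deposited 1 table of raw read counts in windows around start sites, with 1 column per genotype, per the file headers. The submitters' processing notes name Bowtie2 2.2.9, Picard 2.1.1, bedtools 2.26.0 and the build mm10. What each tool did, how wide the windows are, which annotation set them and how multiply mapped or duplicate reads were treated is not stated in the labels or headers; strict mapping filters empty windows in repeats, and duplicate removal lowers high counts. Libraries came from sonicated chromatin and were size-selected, per the labels' protocols. No column of values was left unused (0).

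Members were taken by identifier number. Of 51121 identifiers, 0 matched a name in the RefSeq gene table (GRCm38.p6), so gene names, sequences and the planned microRNA lists were not used here. Reads were summed per set and scaled to library totals. Windows averaging 5 reads or more entered the calling, with 2 reads added (scaled to library size), a 2-fold threshold and a Clopper-Pearson 95% interval. No test between genotypes was possible with 1 library each. Named windows were to be the 5 most-read and the first 5 calls per direction by the near limit of their interval; without gene names, identifiers are printed for the first 2 per direction and the most-read window, and ENSMUSG00000065628 was singled out after its values were seen. The members, lists and comparisons were chosen with earlier results of these data known. The calling was tested on simulated data. Python 3.11.15, numpy 2.4.6, scipy 1.17.1, pandas 2.3.3 and matplotlib 3.10.9 were used.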

Additional observations from a re-analysis of the deposited data

How the results depend on the processing

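Depth limits what single windows can show: the block's median was 11 reads in the KAP1+/+ and 5 in the KAP1f/f library, each a single library. The counts of 4 windows called lower and 5 called higher, of 192, were 2 and 2 with 10 reads added. That setting called 0.321% and 0.312% of all windows, smaller shares than in the block, where each rests on 2 windows. The counts were 1 and 3 among the 70 block windows averaging 10 reads or more (1.82% and 4.10% of all windows past that filter). With a 99% interval they were 1 and 2 (0.281% and 0.67%). They were 4 and 6 with 0.5 reads added (1.81% and 2.58%), 4 and 5 with no filter (1.43% and 2.13%) and 4 and 6 with scaling by the median of ratios (1.45% and 2.64%). The pooled ratio of 1.01 ranged from 0.99 to 1.04. The lowest value came with 20 numbers trimmed from each end of the block, the highest with scaling by the median of ratios. That scaling lowered the scale by which ratios are divided, a log2 shift of -0.04 in the scale. With that trimming, 0 of 183 windows were empty (0%, up to 1.996%), against 0.47%. With all other windows as comparator, reads per window were 1.27 times (KAP1+/+) and 1.28 times (KAP1f/f) the comparator's, and the comparator's empty windows were 12.1%. With comparator rows taken only up to the last table row that holds a block window, chosen after seeing the data, they were 2.64%, against 2.34%. The larger shares follow from the windows included. No paired analysis was possible because there was 1 library of each genotype.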

Other observations

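The windows of the microRNA block were not spread over the table. The last of the 212 lay in row 11202 of 51121 (21.9%), a cut set by the block itself. Of the 17863 comparator windows, 2800 (15.7%) lay in rows up to it. The rows of other runs of numbers were not compared. Those 2800 comparator windows averaged 11.98 reads in the KAP1+/+ and 5.35 in the KAP1f/f library, with a pooled KAP1f/f to KAP1+/+ ratio of 0.94 (95% binomial interval 0.92 to 0.96). Over the whole comparator the corresponding values were 12.0, 5.39 and 0.95. Against the comparator windows of the same rows, the microRNA block's ratio was 1.07 times as high (0.997 to 1.15), and its reads per window were 0.99 times (0.95 to 1.03) and 1.06 times (1.002 to 1.13) theirs in the KAP1+/+ and the KAP1f/f library. What orders the rows of the table is not stated in the labels or headers.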
